A study of Mus musculus with 40 samples.

Results

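The comparison set hearts of uninduced CM-Il11-Tg mice, which carry an *Il11* transgene but received no tamoxifen, against control hearts, and asked which genes differ where *Il11* is present at a low level without tamoxifen. Members were the libraries whose labels give a transgenic mouse without tamoxifen or a control mouse, tested within each sex: 4 uninduced and 3 control male hearts, and 4 uninduced and 4 control female hearts, which makes 15 of the 40 libraries in the series. A pair of male libraries whose labels name one group in one field and another group in another field was left out. The remaining libraries came from induced CM-Il11-Tg hearts taken 1 week, 3 weeks or 6 weeks following the drug, and polyA RNA was sequenced with 1 library per heart.

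CM-Il11-Tg mice are heterozygous for α-MHC-MerCreMer (MCM), a tamoxifen-dependent Cre recombinase driven by a cardiomyocyte promoter, and for *Rosa26-Il11*, in which a floxed stop cassette precedes a mouse *Il11* sequence. Controls were littermates heterozygous for MCM and without *Rosa26-Il11*, so both groups carry the Cre gene. The control mice were given tamoxifen and the uninduced mice were not, so the transgene and the absence of tamoxifen differ between the groups together and cannot be told apart. Both groups carry the label baseline, and the age of the uninduced mice is not given in the sources used here. The parent strains were C57BL/6N for *Rosa26-Il11* and C57BL/6J for MCM. The labels name the tissue as heart, and the study's text names left ventricular tissue.

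IL11 is a cytokine of the IL6 family that binds its receptor IL11RA and the shared subunit gp130 (*Il6st*), and signals through JAK kinases, STAT3 and ERK. STAT3 drives genes of the acute phase response together with its own feedback inhibitor *Socs3*. In the heart, fibroblasts are well known IL11-responsive cells, where it promotes matrix production.

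The 15 libraries held 16663513 to 65333832 reads on listed genes in males and 19147947 to 29345340 in females. All 12 ventricular cardiomyocyte markers were tested in both sexes, and none had a limma adjusted p under 0.05. At an unadjusted limma p under 0.05 there were 2 in males and 3 in females, beside 1789 of 16931 and 2605 of 16956 of all tested genes. The range of the summed level of these markers overlapped between uninduced and control libraries. Several libraries stood apart from their group. Uninduced female replicate 3 had the highest *Il11* level of its group, uninduced female replicate 4 had the lowest sum of nuclear RNAs (346 CPM against 1983 to 2751 in the other uninduced females) and the highest sum of MHC class II genes, and uninduced male replicate 1 was the highest of its group for most genes that rose. Control male replicate 4 was the highest control for matrix, macrophage and MHC class II genes. Control male replicate 1 had the highest sum of red cell genes, 7907 CPM against 1699 and 2961 CPM in the other male controls. Values are given in CPM as deposited, counts scaled by a factor of each library whose sums differ between libraries, fold changes are differences of means of log2(CPM + 0.5), and a gene was called where the limma test gave an adjusted p under 0.05. The limma p-values rest on the spread between hearts within groups, shared over all groups of a sex, induced hearts included.

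*Il11* (ENSMUSG00000004371, chr7:4775372-4785858 on the minus strand of GRCm39) was present in every uninduced heart and close to absent in controls. In males it stood at 0, 0.114 and 0.147 CPM in the controls and at 18.4, 23.3, 20.1 and 16.5 CPM in the uninduced hearts. In females the controls held 0.0431, 0.145, 0 and 0.166 CPM, none with more than 3 reads, and the uninduced hearts held 21.2, 21.4, 49.2 and 15.5 CPM. The groups did not overlap in either sex. The log2 fold change was 5.09 (SE 0.23, limma adjusted p = 3.79e-11) in males and 5.41 (SE 0.24, limma adjusted p = 7.06e-12) in females, values that depend on the added 0.5 because controls held 0 to 9 reads; edgeR on recovered reads gave 7.52 and 8.21. A two-sided exact permutation test gave p = 0.0286 in each sex, the smallest value these group sizes allow. One week after tamoxifen the mean was 462 ± 168 CPM in males and 484 ± 89.0 CPM in females (SD, n = 4 each), so the uninduced mean of 19.6 ± 2.89 CPM in males was 4.24% of that level and the uninduced mean of 26.8 ± 15.1 CPM in females was 5.54%. The reads do not tell the transgene's *Il11* from the endogenous gene.

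**Figure D1:**
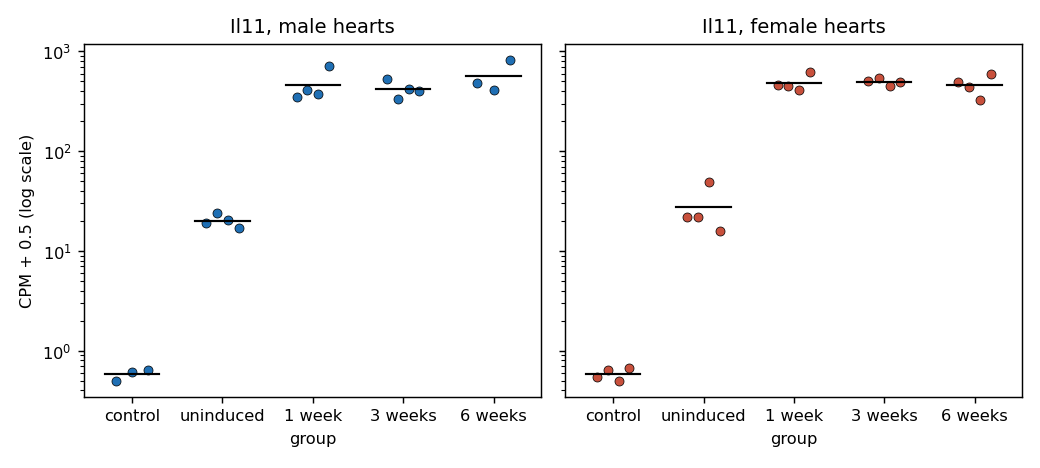
Il11 in single libraries, as CPM + 0.5 on a log axis, for control, uninduced and induced hearts of each sex, with points for libraries and bars for group means. The uninduced libraries lie between 15.5 and 49.2 CPM, above every control and below every induced library.

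The genes that were called mostly rose, while over all tested genes 51.78% of the changes were positive in males and 49.75% in females. In males 101 of 16931 tested genes were called (0.597%), 95 higher and 6 lower in uninduced hearts, and in females 487 of 16956 (2.87%), 408 higher and 79 lower. With a size of 1 or more on the log2 scale required as well, 65 male genes (0.384%) and 131 female genes (0.773%) remained. The counts moved with single libraries: the male count was 51 without uninduced replicate 1, 49 without control replicate 1 and 49 without control replicate 3, and the female count was 297 without uninduced replicate 3, 795 without uninduced replicate 4, 306 without control replicate 1 and 282 without control replicate 2. Using only the uninduced and control libraries in the fit gave 150 male and 170 female genes.

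The sexes shared 76 called genes, which is 0.457% of the 16627 genes tested in both. They made up 75.3% of the male calls, where 481 of all 16627 genes were called in females. They made up 15.8% of the 481 female calls that were tested in both, where 101 of all 16627 genes were called in males. Of the 76 shared genes 75 were higher in uninduced hearts (0.451%) and 1 was lower. The uninduced and control libraries did not overlap in either sex for 73 of the 76. Taken in 1 sex alone, they did not overlap for 14.9% of all tested genes in males and 8.24% in females. The share over all genes for both sexes together is not given here. Calls and overlap rest on the same values, and 100 of 101 male calls and 443 of 487 female calls were without overlap. All 76 had the same direction in both sexes. Across those 16627 genes, which are not independent replicates, the fold changes of the sexes had a Pearson r of 0.547 and a Spearman rho of 0.379; without uninduced female replicate 3 the Pearson r was 0.444. Of the 405 female calls that missed the threshold in males, 373 had the same sign there, and of the 25 male calls that missed it in females, 24 did, beside 61.6% of all genes. No gene differed between the sexes in its change (0 of 16627, 0.00%, by limma; 862 at an unadjusted p under 0.05, and 0 called by edgeR or DESeq2 with 877 and 948 at that level), and the smallest adjusted p was 0.913, for *Scin*, named for that value. The shared count was 45 without uninduced male replicate 1, 43 without control male replicate 1 and 44 without control male replicate 3, and 29 of the 76 genes were called in both sexes in every one of 26 alternative fits. Among those 29, named after their values were seen, were *Il11*, *C4a*, *C4b*, *C3*, *C1s1*, *C1ra*, *C1rb*, *Serpina3n*, *Hp*, *Mmp3*, *Comp*, *Aldh1a2*, *Apod*, *Bmper*, *Csf2rb2*, *Lgi2*, *Met*, *Nfasc*, *Pacsin1*, *Pgk1*, *Sfrp1*, *Srpx*, *Tmem176a* and *Tmem176b*.

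**Figure D2:**
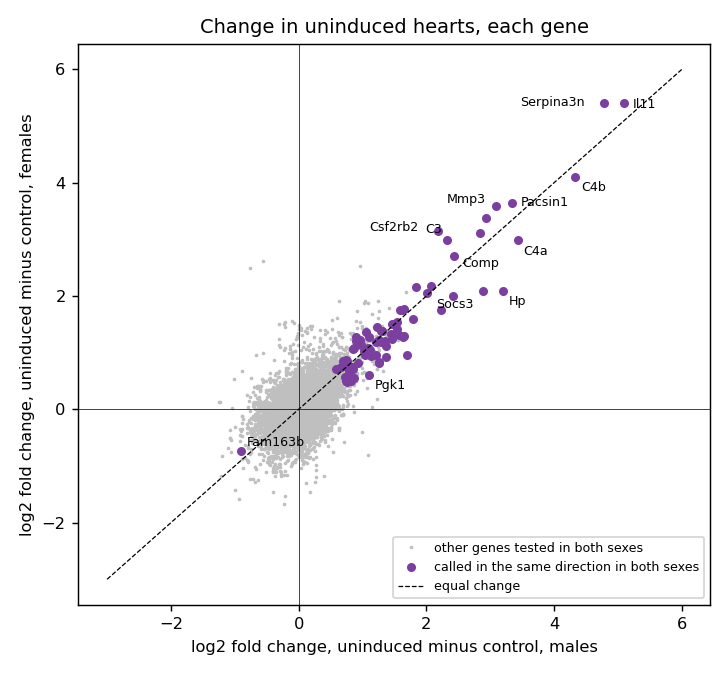
Log2 fold change of uninduced against control hearts for each gene tested in both sexes, males on the horizontal and females on the vertical axis, with genes called in the same direction in both sexes in purple and a dashed line of equal change. Il11, Serpina3n and C4b lie farthest out, and Fam163b is the purple point below 0 in both sexes.

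Genes of the complement system, the plasma cascade that tags and lyses targets and recruits leukocytes, were among the most strongly raised in both sexes. *C4b*, which encodes complement component 4 of the classical and lectin pathways (chr17:34947354-34962912), stood at 5.70, 5.08 and 8.29 CPM in male controls and at 186.7, 127.5, 112.4 and 124.5 CPM in uninduced males. In females its controls held 4.44, 3.92, 4.55 and 4.93 CPM and the uninduced hearts 78.4, 78.5, 79.5 and 106.1 CPM. The lowest uninduced value was far above the highest control in each sex. The log2 fold change was 4.34 (SE 0.20, limma adjusted p = 3.79e-11) in males and 4.11 (SE 0.16, limma adjusted p = 1.71e-12) in females. Its neighbour and near-identical copy *C4a* changed by 3.44 (SE 0.21) and 2.98 (SE 0.19), and reads that fit both copies may have been divided between them.

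*C3*, the component on which all activation routes converge, held 72.8, 71.7 and 94.8 CPM in male controls against 605, 324.7, 357 and 364 CPM in uninduced males. Female controls held 43.7, 47.6, 61.8 and 40.3 CPM and uninduced females 293, 374, 440 and 448 CPM. Both sexes showed separate groups, with log2 fold changes of 2.33 (SE 0.20) and 2.99 (SE 0.21) and limma adjusted p of 4.55e-07 and 1.56e-08. *C1s1*, a protease of the C1 complex, changed by 1.31 (SE 0.17) in males and 1.39 (SE 0.14) in females. The other C1 proteases *C1ra* (1.29 and 1.38), *C1rb* (1.25 and 1.23) and *C1s2* (1.10 and 1.05), the C1 inhibitor *Serping1* (1.09 and 1.09) and the terminal component *C7* (1.70 and 0.97) were called in both sexes as well; these 5 were named after their values were seen. *C1ra* and *C1rb* were called in both sexes in all 26 alternative fits, *C1s2* and *Serping1* in 21 and *C7* in 17. *C1ra* with *C1rb* and *C1s1* with *C1s2* are close copies, so their shares of reads are uncertain. Of the 20 tested genes on the list of cytokines, chemokines and complement, 4 were higher in males, beside 0.561% of all genes, and 7 in females, beside 2.41%. The list's median log2 fold change was 0.30 in males and 0.57 in females, against 0.01 and -0.00097 over all genes, and it was 0.26 and 0.64 with genes absent from controls set at the bound of 3 reads. The chemokines *Ccl8* (1.44) and *Cxcl5* (0.70) were called in females. In males *Ccl8* held a difference of 1.06 with a limma adjusted p of 0.263 and *Cxcl5* was too low to be tested. The complement inhibitor *Cfi* was called in females (1.62) and held a difference of 1.24 in males with a limma adjusted p of 0.138. The female call of *Ccl8* was lost with only uninduced and control libraries in the fit (limma adjusted p = 0.122), with a pseudocount of 2 (log2 difference 0.64) and, chosen after seeing the data, without uninduced females 3 and 4 (log2 difference 0.84). The female call of *Cxcl5* was lost without uninduced replicate 1, control replicate 1 or control replicate 2 (0.58, 0.67 and 0.67). It was also lost with only uninduced and control libraries in the fit (limma adjusted p = 0.104). With a pseudocount of 2 the log2 difference of *Cxcl5* was 0.22 and the call was lost, so its size depends on the added value. *Il6* stood at 0.138 ± 0.182 CPM in uninduced males and 0.1497 ± 0.168 CPM in uninduced females (SD, n = 4 each) and was not called.

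Genes of the STAT3 and acute phase response, which follow the JAK-STAT arm of the receptor, rose in part. *Serpina3n*, a secreted inhibitor of serine proteases and an acute phase gene (chr12:104372810-104380597), stood at 3.71, 2.39 and 4.17 CPM in male controls and at 256, 87.2, 77.1 and 69.9 CPM in uninduced males. Female controls held 1.46, 2.37, 3.15 and 2.38 CPM and uninduced females 57.8, 101, 421 and 78.4 CPM. Male replicate 1 and female replicate 3 were the highest, and no uninduced value reached down to a control. The log2 fold change was 4.78 (SE 0.33, limma adjusted p = 3.12e-08) in males and 5.42 (SE 0.38, limma adjusted p = 1.56e-08) in females. It belongs to a cluster of similar genes in which *Serpina3i* also rose (2.89 and 2.09), and reads shared within that cluster make the single members uncertain. The female call of *Serpina3i* was lost when only uninduced and control libraries were fitted (limma adjusted p = 0.0681).

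*Socs3*, the feedback inhibitor of gp130 signalling (chr11:117856905-117860898), held 2.85, 2.69 and 2.90 CPM in male controls and 26.7, 11.95, 10.1 and 8.28 CPM in uninduced males. In females the controls held 3.01, 3.68, 2.401 and 2.99 CPM and the uninduced hearts 6.42, 13.8, 56.1 and 7.28 CPM. Here too the groups were apart, with male replicate 1 and female replicate 3 at the top. The log2 fold change was 2.01 (SE 0.25, limma adjusted p = 9.48e-05) in males and 2.05 (SE 0.39, limma adjusted p = 0.00449) in females, where the call was lost with only uninduced and control libraries in the fit (limma adjusted p = 0.135). The acute phase gene *Hp*, whose product binds free haemoglobin, changed by 3.20 (SE 0.30) in males and 2.09 (SE 0.29) in females. *Lbp*, which binds bacterial lipopolysaccharide, changed by 1.30 (SE 0.23) and 1.19 (SE 0.25); its male call was lost without control replicate 1 or control replicate 3 (1.15 and 1.17), and its female call with only uninduced and control libraries in the fit. Of the 22 genes on the list of STAT3-induced and acute phase genes, 6 were called higher in each sex, beside 0.561% of all genes in males and 2.41% in females, and none lower, and the median was 0.79 in males and 0.87 in females (0.95 with genes absent from controls at the bound of 3 reads). *Serpina3n*, *Socs3*, *Hp* and *Lbp* were called in both, and the siderophore-binding *Lcn2* and *Serpina3m* were called in males (1.26 and 1.22), and *Bcl3* and *Timp1* in females (1.25 and 1.87). *Lcn2* lost its call without uninduced replicate 1 (0.94), control replicate 1 (1.24) or control replicate 3 (1.19), and *Serpina3m* under each library left out except uninduced replicate 3, at changes down to 0.92. *Bcl3* lost it without uninduced replicate 2, uninduced replicate 3 or control replicate 1 (1.12, 0.95 and 1.07), and *Timp1* without control replicate 1 or control replicate 2 (1.56 and 1.92). The male list count was 3 without control replicate 1 or control replicate 3. The female list count was 2 with only uninduced and control libraries in the fit. *Reg3g* held no read in any control or uninduced library.

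Of the Il11 receptor and signal chain, 15 genes with *Il11* itself, *Il11* and *Socs3* were called higher in males, beside 0.561% of all genes. In females these and *Stat3* were called higher, beside 2.41% of all genes. *Stat3* itself stood at 137 ± 25.1 CPM in male controls (SD, n = 3) and 207 ± 12.5 CPM in uninduced males (SD, n = 4), a log2 fold change of 0.61 with a limma adjusted p of 0.0714. In females it stood at 121 ± 13.9 and 205 ± 52.1 CPM (SD, n = 4 each), a change of 0.74 with a limma adjusted p of 0.00392 that was not called with only uninduced and control libraries in the fit (0.0785). The receptor gene *Il11ra1* held log2 differences of 0.23 in males and -0.12 in females, and *Il6st* of -0.03 and 0.37, none of them called.

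A promoter motif was looked up for the genes that rose together. STAT factors bind the palindrome TTCNNNGAA, which reads the same on both strands, and it was searched in the 250 bases before the start of the canonical transcript (GRCm39, GENCODE). Where that transcript starts inside the span of its gene, the window lies within the gene, as for *Socs3* and *Il11*. The motif was found for 7 of the 72 protein-coding genes higher in both sexes (9.72%) and for 898 of the 13605 protein-coding genes tested in both (6.60%). The 7 genes were *Socs3*, *C7*, *Serpina3i*, *Csf2rb2*, *Cxcl14*, *Casp12* and *Clca3a1*, named by this match, and its first base lay 223, 167, 84, 15, 131, 41 and 17 bases upstream of the start in that order. The match is a description of letters and not a site in use, and *Serpina3n*, *C4b*, *C3*, *Hp* and *Il11* had no match in the window. The windows of a feedback inhibitor (Socs3, chr11:117860124-117860373, minus strand), a complement gene (C7, chr15:5093253-5093502, minus strand) and a protease inhibitor (Serpina3i, chr12:104229113-104229362, plus strand) are shown 5′ to 3′ as examples from 3 groups of raised genes, with the matched letters in capitals.
Socs3: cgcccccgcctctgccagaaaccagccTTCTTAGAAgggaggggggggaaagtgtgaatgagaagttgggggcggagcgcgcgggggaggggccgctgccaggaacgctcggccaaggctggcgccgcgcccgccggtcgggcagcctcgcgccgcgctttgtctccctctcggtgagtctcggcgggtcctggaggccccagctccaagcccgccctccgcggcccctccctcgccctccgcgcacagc
C7: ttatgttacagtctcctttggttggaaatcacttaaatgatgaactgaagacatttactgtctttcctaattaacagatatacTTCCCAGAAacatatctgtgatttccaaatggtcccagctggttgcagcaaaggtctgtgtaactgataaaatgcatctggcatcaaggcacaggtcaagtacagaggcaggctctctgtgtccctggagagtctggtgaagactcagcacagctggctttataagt
Serpina3i: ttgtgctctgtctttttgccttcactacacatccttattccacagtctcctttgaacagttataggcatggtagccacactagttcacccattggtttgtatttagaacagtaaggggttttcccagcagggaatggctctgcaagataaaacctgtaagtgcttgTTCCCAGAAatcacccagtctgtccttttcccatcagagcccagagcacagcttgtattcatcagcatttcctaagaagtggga
Each of these 3 genes was called higher in both sexes, at 2.01 and 2.05 for *Socs3*, 1.70 and 0.97 for *C7*, and 2.89 and 2.09 for *Serpina3i*.

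Matrix genes, which build and remodel the tissue between cells, rose in a few members. *Mmp3* (stromelysin, a secreted matrix protease, chr9:7445822-7455975) held 2.06, 0.795 and 1.42 CPM in male controls and 32.5, 12.2, 11.6 and 11.7 CPM in uninduced males. Female controls held 0.603, 1.02, 1.501 and 1.44 CPM and uninduced females 8.09, 20.7, 66.3 and 10.6 CPM. Male replicate 1 and female replicate 3 again stood above the rest of their groups, none of which overlapped control. The log2 fold change was 3.09 (SE 0.26, limma adjusted p = 4.67e-07) in males and 3.59 (SE 0.41, limma adjusted p = 2.23e-05) in females. *Comp*, cartilage oligomeric matrix protein (chr8:70826192-70834716), changed by 2.43 (SE 0.27) and 2.71 (SE 0.41).

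*Col3a1*, the chain of fibrillar type III collagen, stood at 179.5, 184 and 382 CPM in male controls and 858, 466, 736 and 557 CPM in uninduced males. In females it stood at 283, 214, 299 and 288 CPM in controls and 702, 499, 834 and 715 CPM in uninduced hearts. Control male replicate 4 lay near the lowest uninduced male without reaching it. The changes were 1.45 (SE 0.26, limma adjusted p = 0.00750) and 1.33 (SE 0.20, limma adjusted p = 0.000528), and the male call was lost without control replicate 1 or control replicate 3 (1.26 and 1.28). Of 21 genes on the extracellular matrix list 3 were higher in males, *Mmp3*, *Comp* and *Col3a1*, beside 0.561% of all genes, and 6 in females, beside 2.41%, where *Timp1* (1.87), *Lox* (1.10) and *Mmp14* (0.92) joined them. *Lox* lost its call without any of uninduced replicates 2 and 3 and control replicates 1, 2 and 4. The list's median was 0.32 in males and 0.54 in females, beside 2.1 and 2.09 at 1 week against the same controls. *Col1a1* stood at 208 ± 44.4 CPM against 121 ± 40.9 CPM in male controls and at 238 ± 27.7 against 147 ± 24 CPM in female controls (SD, n = 3 in male controls and 4 in the others), log2 differences of 0.80 and 0.70 that were not called. *Postn*, *Fn1* and *Cthrc1* were not called either, with differences of 0.15, 0.05 and 0.04 in males and 0.35, 0.49 and 0.25 in females. Of 8 fibroblast markers, *Col3a1* alone was called in each sex, beside 0.561% of all genes higher in males and 2.41% in females. *Pdgfra* held differences of -0.08 and 0.07. The summed fibroblast markers ran from 1444 to 1812 CPM in male controls and 1957 to 2534 CPM in uninduced males, and from 1927 to 2251 and 2287 to 3011 CPM in females. In bulk tissue, more cells of a type and more RNA per cell cannot be told apart, and the part of fibroblasts in the rise of matrix genes was not tested.

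Further genes that rose in both sexes have roles in retinoid, growth factor and Wnt signalling. *Aldh1a2*, the enzyme that makes retinoic acid from retinaldehyde (chr9:71122630-71203527), held 4.27, 2.95 and 3.81 CPM in male controls and 47.4, 34.6, 24.4 and 23.6 CPM in uninduced males. Female controls held 4.56, 3.10, 4.45 and 4.82 CPM and uninduced females 46.7, 33.99, 104.4 and 32.4 CPM. The groups were far apart in each sex, at log2 fold changes of 2.94 (SE 0.21, limma adjusted p = 3.14e-08) and 3.378 (SE 0.24, limma adjusted p = 1.56e-08). *Met*, the receptor of hepatocyte growth factor, changed by 1.57 (SE 0.20) in males and 1.30 (SE 0.17) in females. *Sfrp1*, a secreted Wnt antagonist, changed by 1.62 (SE 0.19) and 1.76 (SE 0.21). *Bmper*, a secreted BMP-binding protein, changed by 1.54 (SE 0.15) and 1.54 (SE 0.19). *Csf2rb2*, a beta chain of the mouse IL3 receptor with the close copy *Csf2rb*, changed by 2.18 (SE 0.32) and 3.14 (SE 0.28).

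*Pacsin1*, a membrane-bending endocytic adaptor best known from neurons, held 0.862, 0.189 and 3.71 CPM in male controls and 22.1, 19.0, 12.3 and 11.2 CPM in uninduced males. Female controls held 0.172, 0.290, 0.5003 and 0.443 CPM and uninduced females 8.52, 9.96, 12.5 and 9.63 CPM. Its change was 3.34 (SE 0.40) in males, where one control stood above the other two, and 3.65 (SE 0.18) in females. *Nfasc*, the adhesion protein neurofascin, changed by 2.84 (SE 0.23) and 3.11 (SE 0.28), *Lgi2*, a secreted leucine-rich repeat protein, by 2.08 (SE 0.16) and 2.18 (SE 0.17), and *Srpx*, a sushi-repeat protein, by 2.23 (SE 0.16) and 1.75 (SE 0.16). *Apod*, apolipoprotein D, changed by 1.66 and 1.77, and the paired genes *Tmem176a* and *Tmem176b* by 1.79 and 1.46 in males and by 1.60 and 1.25 in females.

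**Figure D3:**
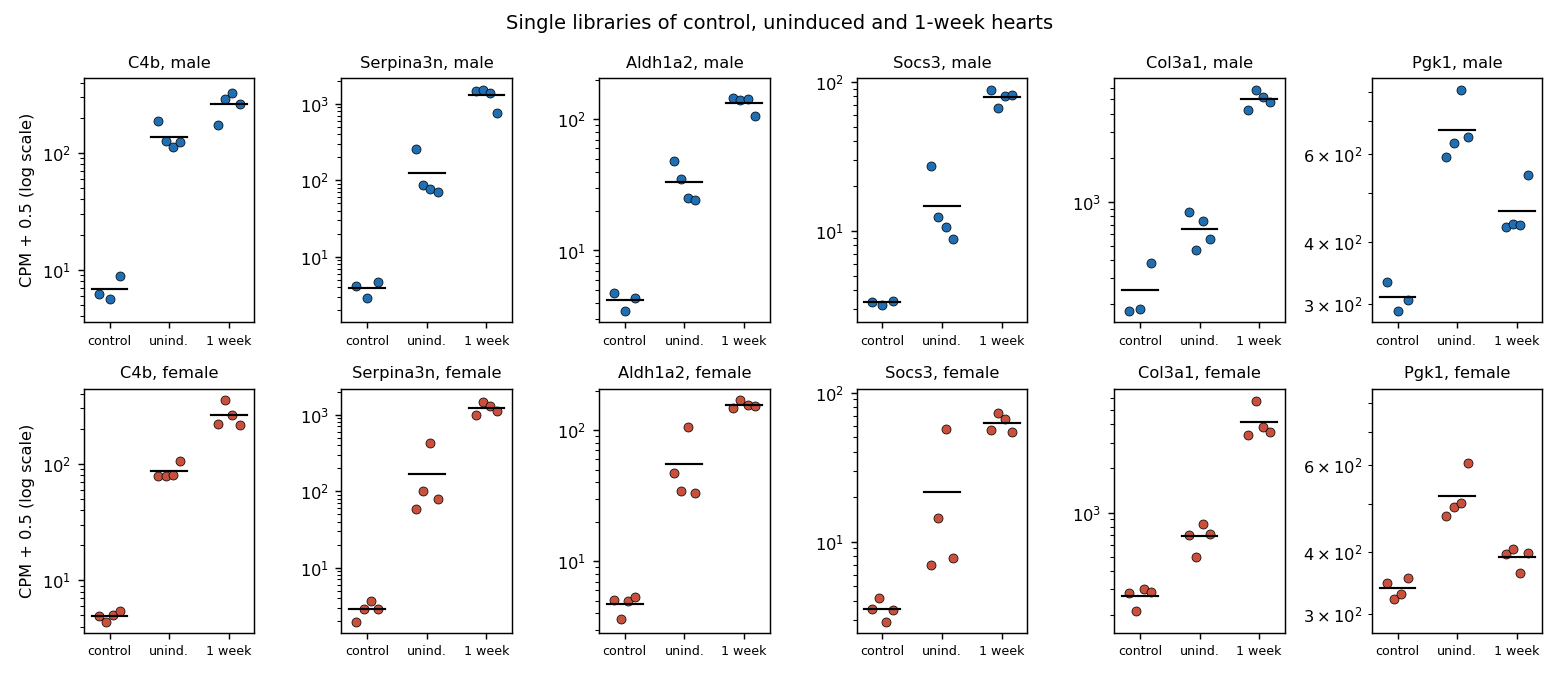
C4b, Serpina3n, Aldh1a2, Socs3, Col3a1 and Pgk1 in single libraries of control, uninduced and 1-week hearts, as CPM + 0.5 on a log axis, with bars for group means. In both sexes the uninduced libraries of the first 5 genes lie between the control and the 1-week means, and those of Pgk1 lie above the 1-week libraries.

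*Pgk1*, a glycolytic enzyme expressed in all cells (chrX:105230706-105247305), had another order of levels. The stop cassette of *Rosa26-Il11* holds a selection gene whose sequence was not analysed here, so whether all of these reads come from the endogenous *Pgk1* was not tested. It held 332, 289 and 305 CPM in male controls and 592, 630, 809 and 649 CPM in uninduced males, and 346, 322, 329 and 355 CPM in female controls and 472, 494, 502 and 605 CPM in uninduced females. The groups were apart in each sex, with differences of 1.11 (SE 0.12, limma adjusted p = 2.91e-05) and 0.61 (SE 0.08, limma adjusted p = 0.000215). At 1 week after tamoxifen the means were 460 ± 57.2 CPM in males and 391 ± 19.3 CPM in females, lower than in uninduced hearts by 0.54 and 0.40 on the log2 scale (limma adjusted p = 0.00246 and 0.00260). At 6 weeks they were 369 ± 31.3 CPM in males (SD, n = 3) and 375 ± 21.3 CPM in females (SD, n = 4). Of the 75 genes higher in both sexes, *Pgk1* was the single one lower at 1 week than in uninduced hearts in both. The share of all tested genes lower in that contrast is not given here. The close copy *Pgk1-rs7*, looked up after these values were seen, held differences of 0.02 and 0.05 and was not called, and reads that fit both may have been divided between them.

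The levels of the 75 genes in uninduced hearts were set beside those at 1 week, in a contrast that uses the same uninduced libraries. At 1 week 60 of the 75 were higher again than in uninduced hearts in both sexes by limma, 1 was lower in both, and 7 were called in neither sex. The share of all tested genes called in that contrast is not given here, so these counts have no background beside them. These 7, named after their values were seen, were *Hpn*, *Gm9905*, *Trim68*, *Fuca2*, *Lypd8l*, *Fetub* and *Togaram2*. *Lypd8l* changed by 1.85 in uninduced males and 2.17 in uninduced females, and by 1.77 and 2.27 at 1 week. The uninduced mean was a median 38.8% of the 1-week mean in males (quartiles 20.7% and 58.4%) and 37.6% in females (quartiles 27.6% and 58.3%), while that of *Il11* was 4.24% and 5.54%. The rise over control, in CPM, was a median 24.7% of the 1-week rise in males and 29.6% in females, beside 4.22% and 5.52% for *Il11*. On the log2 scale the order was the other way, with medians of 50.4% and 49.2% of the 1-week change beside 53.2% and 55.9% for *Il11*. The 75 genes were chosen by their rise in the same libraries, which favours larger shares, so these shares are a description. As a share of the 1-week level, *C4b*, whose control level is low, stood at 52.4% in males and 32.9% in females, *Pacsin1* at 74.2% and 45.2%, *Aldh1a2* at 24.4% and 35.0%, *Serpina3n* at 9.51% and 13.5%, and *Hp* at 7.25% and 10.04%.

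Within the uninduced hearts the order of the libraries for *Il11* matched that of the genes that rose only in part. The 75 genes include *Il11* itself. In males replicate 1 was highest for 68 of the 75 genes and replicate 2 for 4, although *Il11* was highest in replicate 2 (23.3 CPM against 18.4 CPM in replicate 1). In females replicate 3, which held the highest *Il11* level, was highest for 52 genes, and replicate 4, which held the lowest, was highest for 19.

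Genes that respond to full induction were taken from the other sex, so that their choice used none of the libraries in which they were then measured. Of 830 genes raised at 1, 3 and 6 weeks in females and tested in males, 82 were higher in uninduced males, beside 0.561% of all genes, and none lower, with a median change of 0.37 beside 0.01 for all genes and 1.49 at 1 week. The medians of single uninduced males were 0.57, 0.27, 0.42 and 0.33, and those of the controls -0.12, -0.12 and 0.26, so control replicate 4 lay just under the lowest uninduced heart. Without control replicate 4 the median was 0.53. The 82 calls were 43 without uninduced replicate 1, 39 without control replicate 1 and 43 without control replicate 3. Of 748 genes raised in males and tested in females, 279 were higher in uninduced females, beside 2.41% of all genes, and none lower, with a median of 0.60 beside -0.00097 for all genes and 1.63 at 1 week. The single uninduced females had medians of 0.49, 0.48, 0.92 and 0.52, and the controls ran from -0.08 to 0.05. The 279 calls were 131 with only uninduced and control libraries in the fit, and 192 to 310 without single libraries, lowest without control replicate 2. The 748 included 68.4% of the genes called higher in females, and the 830 included 86.3% of those called higher in males.

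Of the genes lowered at every week in the other sex, few were called in number, at shares above those of all genes. In males 2 of 145 were lower (1.38%), beside 0.0354% of all genes. The median over the 145 was -0.37, with library medians from -0.53 to -0.21 against controls of -0.05 to 0.02. In females 11 of 132 were lower (8.33%), beside 0.466% of all genes, with a median of -0.52 over the 132. Uninduced replicate 3 held -1.11 there, while replicates 1, 2 and 4 held -0.22, -0.27 and -0.14, and the 1-week females ran from -1.22 to -1.11. Without that library the female median was -0.27.

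Genes of antigen-presenting cells were called in uninduced females. All 7 tested MHC class II genes, which present peptides to helper T cells, were higher in females (log2 fold changes of 1.00 to 1.35, median 1.16), beside 2.41% of all genes. Limma called none of 7 in males, at a median of 0.57. At an unadjusted limma p under 0.05 there were 6 in males, beside 1789 of all 16931 tested genes. *Cd74*, the invariant chain, held 79.4, 78.3, 82.7 and 85.0 CPM in female controls and 142, 154, 155 and 326 CPM in uninduced females, and 94.4, 103 and 164.5 CPM in male controls against 176, 197.5, 175 and 167 CPM in uninduced males. Its log2 difference was 1.16 (SE 0.21, limma adjusted p = 0.00265) in females and 0.61 (SE 0.27, limma adjusted p = 0.430) in males. The sum over the 7 genes ran from 159 to 172 CPM in female controls and was 301, 324, 312 and 704 CPM in uninduced females, with replicate 4 far above the rest, and all 7 calls held without replicate 4, at a median of 0.88. In males it was 196, 211 and 333 CPM in controls and 338 to 402 CPM in uninduced hearts, and without control replicate 4 the male median was 0.82 with no gene called. With only uninduced and control libraries in the fit 5 of the 7 were called in females.

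Of 10 macrophage markers 7 were higher in females, beside 2.41% of all genes, *Adgre1*, *Cd68*, *Csf1r*, *C1qa*, *C1qb*, *C1qc* and *Mrc1*, with a median for the list of 0.87. Limma called none of 10 in males, at a median of 0.50. At an unadjusted limma p under 0.05 there were 6 in males, beside 1789 of all 16931 tested genes. *Cd68*, a lysosomal protein of macrophages, stood at 5.59 ± 1.34 CPM in female controls and 10.7 ± 1.58 CPM in uninduced females (SD, n = 4 each), a change of 0.89 (limma adjusted p = 0.000977), and in males at 5.67 ± 1.97 (SD, n = 3) and 7.10 ± 0.88 CPM (SD, n = 4), a difference of 0.34 (limma adjusted p = 0.650). The summed macrophage list ran from 170 to 206 CPM in female controls and from 274 to 414 CPM in uninduced females, and from 157 to 267 CPM and 240 to 320 CPM in males, where control replicate 4 was the highest control. Without that control 3 of the 10 macrophage markers were called in males. Without uninduced females 3 and 4, which was chosen after seeing the data, 6 macrophage markers and all 7 MHC class II genes were still called. The change of no gene in either list differed between the sexes at an adjusted p under 0.05, and the largest such difference, of *Ciita* (0.9955 against -0.1566), had a limma adjusted p of 0.913. Of the lymphocyte and plasma cell markers 7 were tested in males and 10 in females, and of the neutrophil markers 2 in each, and limma called none in either sex. The part of these cells in the other changes was not tested.

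**Figure D4:**
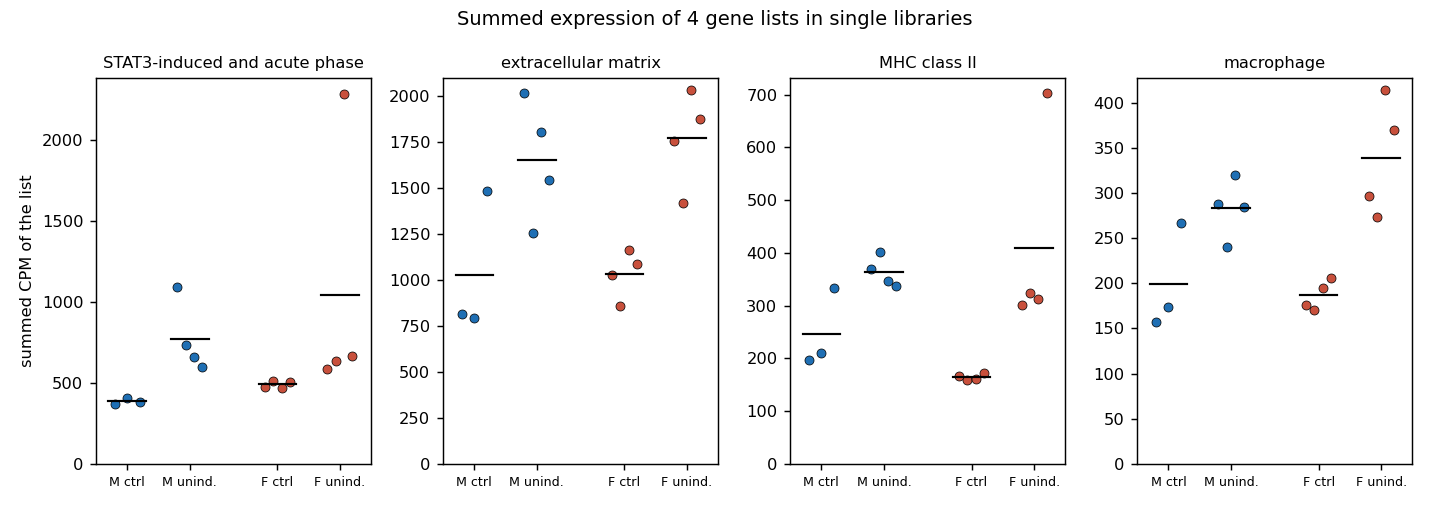
Summed CPM of the genes on 4 lists in single libraries of control (ctrl) and uninduced (unind.) hearts, males (M) in blue and females (F) in red, with bars for group means. Uninduced female replicate 3 stands at 2288 CPM in the STAT3 list and replicate 4 at 704 CPM in the MHC class II list, and male control replicate 4 lies above the other male controls in the last 3 lists.

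Few genes fell. In males the 6 lower genes (0.0354%) were *Angptl7*, *Plekhh1*, *Whrn*, *Fam163b*, *Sh3pxd2a* and *Arhgef5*, with log2 fold changes of -1.20, -1.10, -1.06, -0.90, -0.48 and -0.43, and each lost its call without at least 1 single library: *Angptl7* without control replicates 1 or 4, *Plekhh1* without uninduced replicate 1 or control replicate 4, *Whrn* without uninduced replicates 1 or 2 or any control, and *Sh3pxd2a* and *Arhgef5* without most or all libraries in turn. *Fam163b*, the gene lower in both sexes, held 1.01, 1.33 and 1.24 CPM in male controls and 0.479, 0.504, 0.287 and 0.355 CPM in uninduced males, and 0.904, 0.871, 1.30 and 1.11 CPM in female controls and 0.476, 0.683, 0.220 and 0.364 CPM in uninduced females. It was separated in each sex but lost its female call without uninduced replicate 3, control replicate 3 or control replicate 4, and its male call without uninduced replicate 3, control replicate 3 or control replicate 4. *Whrn*, a scaffold protein, held 55.5, 52.4 and 46.4 CPM in male controls and 17, 20.4, 28.97 and 34.9 CPM in uninduced males, where replicate 1 was lowest. In females 79 genes were lower (0.466%), with *Nmb*, which encodes the peptide neuromedin B, at -1.46 and the potassium channel subunit *Kcnv2* at -1.02 among the largest falls. *Nmb* held 4.26, 4.07, 3.15 and 2.99 CPM in female controls and 2.19, 0.512, 0.353 and 1.58 CPM in uninduced females, and its call was lost with only uninduced and control libraries in the fit (limma adjusted p = 0.0853). *Kcnv2* fell to 2.82 CPM in replicate 3 from 9.76 to 12.5 CPM in the controls, and lost its call without that library (-0.75), without uninduced replicate 4 (-0.96) and without control replicates 1, 2 or 3.

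Other lists for this tissue held no call or single calls. Limma called none of 12 endothelial markers (3 at an unadjusted p under 0.05 in each sex), at medians of -0.28 in males and -0.06 in females, and *Cdh5* stood at 262 ± 32.99 (SD, n = 3) and 186 ± 24.3 CPM (SD, n = 4) in males, a difference of -0.50 with a limma adjusted p of 0.262. The summed endothelial markers ran from 1395 to 1565 CPM in male controls and from 1113 to 1318 CPM in uninduced males, without overlap, and from 1388 to 1483 and 1366 to 1455 CPM in females. The summed smooth muscle and pericyte markers ran from 1123 to 1388 CPM in male controls and from 923 to 1113 CPM in uninduced males, also without overlap, with all 8 markers below 0 in log2 difference, and from 1084 to 1283 and 839 to 1246 CPM in females. None of 12 ventricular cardiomyocyte genes was called by limma (2 and 3 at an unadjusted p under 0.05), and the kinase *Mylk4* held the most negative difference among them, -0.94 in males and -1.58 in females with limma adjusted p of 0.187 and 0.114. Of the 9 tested fetal and stress genes limma called none in either sex (1 and 2 at that level). Their sum was 7017 CPM in uninduced female replicate 3, 2233 to 3408 in the other uninduced females and 1920 to 2643 in female controls. In males it was 5564 CPM in uninduced replicate 1, 3229 to 3706 in the other uninduced hearts and 3007 to 3441 in controls. *Nppa* stood at 36.2 ± 22.7 and 57.3 ± 51.8 CPM in males and at 56.1 ± 16.7 and 42.4 ± 22.8 CPM in females, and *Ankrd1* held differences of 0.89 and 1.56 with limma adjusted p of 0.372 and 0.0846. The listed genes induced by interferon, p53 targets, clock genes, immediate early genes, nuclear RNAs and markers of smooth muscle, red cells, atrial and skeletal muscle held no call in either sex by limma, and their medians ran from -0.65 (red cells, males) to 0.54 (red cells, females). Of 18 clock genes 0 in males and 8 in females had an unadjusted p under 0.05. Over all tested genes the counts at that level were 1789 of 16931 in males and 2605 of 16956 in females. Off the interferon list, and named after their values were seen, the interferon-activated genes *Ifi205* (1.22 in males and 1.45 in females) and *Ifi211* (0.90 and 1.21) were called higher in both sexes, in 26 and 19 of the 26 alternative fits. Among 2 tested adipose markers *Cfd* was called in females (1.79), beside 2.41% of all genes higher. Among 4 lymphoid organ markers *Ccl19* was called in males (1.45), beside 0.561%. *Cfd* lost its call without uninduced replicate 3 or control replicates 2, 3 or 4, and *Ccl19* without uninduced replicates 1 or 4 or control replicates 1 or 3. *Klf9* was the only call among 17 glucocorticoid and fasting responsive genes, lower in females by 0.53, beside 0.466% of all genes lower. It lost that call without any of uninduced replicates 2 and 3 and control replicates 1, 2 and 4. The summed markers of mesothelium, the outer lining of the heart, ran from 5.71 to 11.2 CPM in female controls and from 12.04 to 32.2 CPM in uninduced females, and *Msln* held a difference of 2.62 there with a limma adjusted p of 0.0507; in males the sum was 6.86 to 8.22 and 4.53 to 7.50 CPM. *Aldh1a2* and matrix genes are also expressed by that layer, and its part in their change was not tested.

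**Figure D5:**
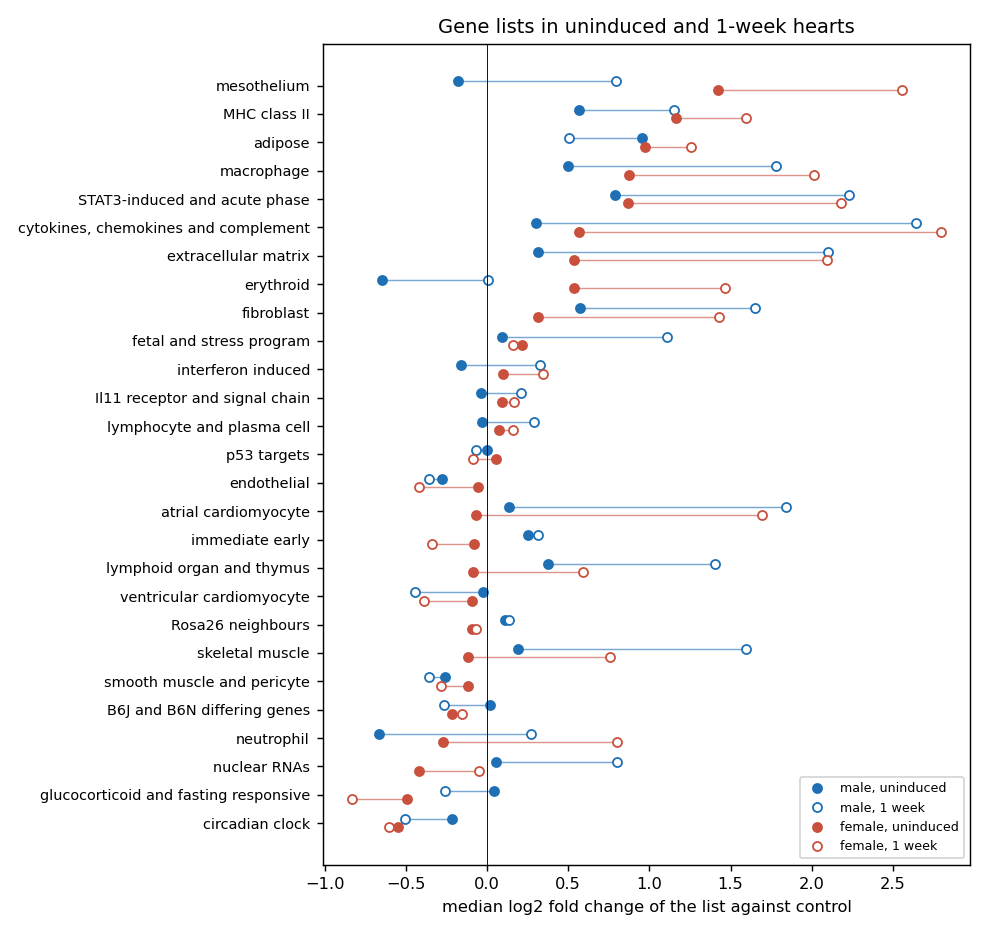
Median log2 fold change against control for each gene list, filled points for uninduced and open points for 1-week hearts, males in blue and females in red, joined by a line within a sex. Both contrasts use the same controls, and the STAT3 list sits at 0.79 and 0.87 in uninduced hearts and the extracellular matrix list at 0.32 and 0.54.

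Near the transgene no gene was called. Within 5 Mb of the *Rosa26* locus (chr6:113043843-113055336), 0 of 81 tested genes in males and 0 of 79 in females were called by limma. At an unadjusted limma p under 0.05 there were 5 and 10, beside 1789 of 16931 and 2605 of 16956 of all tested genes. The medians in the window were 0.03 and -0.0011. The transcript of the locus, *Gt(ROSA)26Sor*, into which the cassette is inserted, held differences of -0.35 in males and -0.61 in females and was not called. None of 12 tested neighbours on the list in males or 13 in females, and none of 5 genes known to differ between the C57BL/6 substrains, was called either. Controls were littermates from the cross of these substrains, so the last result is no test of strain background.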

How the data were processed

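PolyA RNA of mouse hearts was sequenced with 1 library per heart. The authors aligned reads with STAR to GRCm39, counted them per gene with featureCounts and deposited 1 table per sex; the strand setting of the counting is not given in the sources used here. The deposited values are a signal in CPM scaled by a library factor, with column sums between 8.17e+05 and 1.196e+06, and were therefore compared within a sex. Every value came out as a whole number of reads within 0.001, and these recovered reads (100% of values in each library) gave the depths and the alternative count tests.

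Of the table columns, 2 male ones with conflicting labels were not used. Genes at 0.5 or more in at least 3 libraries were tested on log2(CPM + 0.5) by limma 3.58.1 in R 4.3.3 with its trend option, all groups of a sex in 1 fit, with Benjamini-Hochberg adjustment over all tested genes. The change between sexes was tested as an interaction in 1 fit of both tables. *Il11* was also tested with an exact permutation test. Alternatives were edgeR 4.0.16 and DESeq2 1.42.0 on recovered reads, other pseudocounts and filters, median-of-ratios scaling, only the uninduced and control libraries, a replicate block, and leaving out each library. On simulated counts limma recovered 62.9% of genes changed by 1 on the log2 scale in the male comparison (16337 genes) and 71.9% in the female one (16364 genes). The lowest chi-square per gene between replicates was 6.76 over 21 pairs, above sampling noise for every pair. The limit of 3 reads covers counting error only.

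Named genes were *Il11*, the 10 largest rises and falls of each sex without overlap between groups, the 20 genes with the smallest larger adjusted p of both sexes, and the genes of the lists. Members and lists were chosen with earlier results of these data known. Positions and promoter windows came from GENCODE on GRCm39 and matched 99.6% of tested genes.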

Additional observations from a re-analysis of the deposited data

Results flagged for a closer look

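In each group of 4 hearts, the gap between the highest or lowest library and its neighbour was divided by the range of the group, and 14 of 181 groups tested had a ratio above the 95% critical value of Dixon's test, 7 of 94 for named genes and 7 of 87 for sums and medians. Chance alone gives about 5% of groups.

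Uninduced male replicate 1 was the far highest library of its group for *C1s1* (0.910), *Mmp3* (0.950), *Serpina3n* (0.8298) and *Csf2rb2* (0.881). Uninduced male replicate 2 was the far lowest for the summed lymphocyte and plasma cell markers (0.9097).

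Uninduced female replicate 3 was the far highest for *Serpina3i* (0.958), for the summed STAT3-induced and acute phase list (0.9015) and for the median of genes raised in induced males (0.909), and the far lowest for the median of genes lowered in induced males (0.869). Uninduced female replicate 4 was the far highest for *C4b* (0.952) and for the summed MHC class II list (0.913), and the far lowest for the summed nuclear RNAs (0.842). Uninduced female replicate 1 was the far highest for the summed immediate early list (0.868), and control female replicate 1 for *Met* (0.851).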

How the results depend on the processing

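No call for *Il11* was lost and no named value changed sign. Of 1747 alternative values of named genes in the sex where they were called, 1584 stayed past the threshold and 163 did not, and 62 of 96 pairs of gene and sex never lost their call. With a pseudocount of 2 the male median of genes raised in induced females was 0.24. With only uninduced and control libraries in the fit, 170 genes were called in females (164 higher, 6 lower) and 46 in both sexes. DESeq2 called 271 genes in males (234 higher, 37 lower), 789 in females (673 higher, 116 lower) and 182 in both, and the female median of genes raised in induced males was 0.86, against 0.84 with edgeR. A minimum size of 1 on the log2 scale left 65, 131 and 45. Leaving out 1 library at a time gave 49 to 123 male calls, 282 to 795 female calls (514 higher and 281 lower without uninduced female replicate 4), 43 to 99 shared calls, medians of 0.30 to 0.53 in males and 0.48 to 0.64 in females for genes raised in the other sex, of -0.41 to -0.31 and -0.59 to -0.27 for genes lowered, and *Il11* changes of 4.98 to 5.17 and 5.07 to 5.62. In settings chosen after seeing the data, leaving out uninduced females 3 and 4 gave 275 female calls, and leaving out uninduced male 1 and female 3 gave 51, 297 and 38. The causes of these shifts were not tested, and the fits that leave libraries out also hold fewer libraries.

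The labels give groups the same replicate numbers, but the deviations of same-numbered libraries correlated at -0.13 to 0.08 in males and -0.15 to 0.0011 in females, so the numbers were not taken as pairs. With a replicate block 65 genes were called in males (64 higher, 1 lower), 541 in females and 59 in both.

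At this depth a control library with no *Il11* read allows up to 3 reads. The libraries are few, the transgene and tamoxifen differ together, and the test across sexes had 0 calls, which does not show that the sexes respond alike.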
